A study of Gallus gallus with 24 samples.

Results

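Translation factors and aminoacyl-tRNA synthetases were followed in the liver of growing chickens from a fat line (FL) and a lean line (LL). The genes were taken by symbol, namely every eukaryotic initiation factor (EIF followed by a digit), every elongation factor (EEF followed by a digit), the 1-letter tRNA synthetases ending in ARS, ARS1 or ARS2, and EPRS. This gave 62 genes on 128 probes, of 6385 genes with a symbol among 14855 features tested, and all 62 passed the filter on missing values. FL and LL birds descend from divergent selection on abdominal fat weight and were reared under a standard broiler protocol, with no other treatment or allele in the labels. Liver RNA was taken at 6 ages, every other wk from 1 to 11 wk, with 4 arrays per age. Each of the 24 two-colour cDNA arrays held RNA of 1 FL and 1 LL bird of the same age. The FL bird was labelled in channel 1, the green dye, for replicates 1 and 3 of every age, and in channel 2, the red dye, for replicates 2 and 4. The labels name 4 biological replicates of each line and age, so the spread between arrays includes that between birds. Whole liver was used, and in bulk RNA fewer cells of a type and less RNA per cell cannot be told apart. Log ratios give no level of a transcript, so the tissue label could not be checked against the level of hepatic genes.

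Protein synthesis starts when eIF2 with GTP delivers the initiator tRNA to the small ribosomal subunit, eIF3 holds that subunit open for mRNA, and the eIF4 factors bind the mRNA cap and unwind the leader. Elongation factors then bring charged tRNAs to the ribosome and move it along, while aminoacyl-tRNA synthetases load each tRNA with its amino acid. Liver exports much of the protein of plasma and egg yolk, and it adjusts translation to amino acid supply through kinases of the alpha subunit of eIF2 and through the binding proteins of the cap factor eIF4E.

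The deposited values are log ratios of the channels, taken as log2 because the labels give no base. Neither the direction of the ratio nor whether dye-swapped columns had been turned before deposit is given. Each gene was therefore read in 2 ways. For the turned value the sign was set by the dye orientation, so that a positive value is FL over LL provided that channel 2 was divided by channel 1, which the labels do not state. The common profile is the part shared by both orientations, with its sign as deposited. Under fixed channel ratios it is a dye effect, and under columns turned beforehand it is the line difference, and from these columns the readings cannot be told apart. Values are followed by their fitted standard error (SE), and a gene was called at a Benjamini-Hochberg adjusted p under 0.05 over all features in limma.

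Array medians over all features lay close to 0 on 23 arrays, and 7 wk replicate 1 had a median of 0.33. Of the same array, 7 wk replicate 1, the values resembled those of 11 wk replicate 4 (r = 0.796 across features). On 1 wk replicate 4 the profile ran against the mean of the others (r = -0.31), and it lay below -0.3 with 4 arrays of its own orientation. Its direction was therefore not settled, and it was also analysed with its sign turned. The profile of 1 wk replicate 3 did not follow the mean of the others either (r = -0.04), and the next lowest r was 0.26 on 5 wk replicate 3. Replicate 3 of 1 wk was not turned in any setting. Values at 1 wk and trends from 1 wk include both of these arrays. The SD over spots was 0.181 to 0.200 on the arrays of 5 wk and 0.322 or more on those of 9 wk. Of the 62 genes, 27 had 1 probe, among them EIF3M, EIF3F, EIF3E, EIF2B4, EIF2A and EEF1D, so theirs could not be compared with a second. Of the 2 probes of EIF2B3, 1 held no value, so this gene too rested on 1 probe. A probe of EPRS also held no value. Without EPRS, 23 genes of more than 1 probe had probes of both signs. Gene values were missing on single arrays for EIF2B3 and NARS2, 2 in all.

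The first comparison asked whether translation genes differed between FL and LL irrespective of age. None of the 62 genes was called on the turned values, and of all features 0% were called. At an unadjusted p under 0.05 in limma there was 1 gene, against 3.34% of all features. That gene was EEF1B2, a subunit of the exchange factor that recharges eEF1A with GTP, at -0.12 ± 0.05 (SE, n = 24 arrays, unadjusted p = 0.0378, adjusted p = 1.00). Its deposited ratios averaged -0.02 ± 0.27 (SD, n = 12) with FL in channel 1 and -0.26 ± 0.25 with FL in channel 2. The turned sign was negative on 16 of 24 arrays, so the orientations overlapped. QARS, the glutaminyl-tRNA synthetase, followed with -0.04 ± 0.02, and EIF4ENIF1, a transporter that carries eIF4E into the nucleus, with -0.05 ± 0.03. The turned values of the 62 genes ran from -0.12 to 0.05 with a median of -0.01, which was also the median of all features. The 95% confidence intervals had a median half-width of 0.079 log2 units, and the bound farthest from 0 was 0.229, or 1.17-fold. EIF3M, a subunit of eIF3, had a turned mean of -0.02 ± 0.09, with the widest interval of the 62 genes at ± 0.181. The fit had 1 common term for all ages, so differences of the deposited ratios between ages add to the width of such an interval.

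The second question was whether a line difference appeared at single ages. At 1, 3 and 5 wk no translation gene was called, and of all features 0% were called at each of these ages. The count at an unadjusted p under 0.05 was 0 of 62 at each of them, against 0.464%, 0.828% and 1.17% of features. At 9 wk 0 of 62 genes were called, against 0.00673% of features, and 3 had an unadjusted p under 0.05, against 3.25%. These were EIF2B2, a subunit of the nucleotide exchange factor of eIF2 (-0.24 ± 0.08), and the eIF3 subunits EIF3J (0.21 ± 0.07) and EIF3I (0.27 ± 0.10). At 11 wk 0 were called (0% of features), with 0 at the unadjusted threshold against 3.04%.

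At 7 wk 1 gene was called, against 1.1% of features, and 11 had an unadjusted p under 0.05, against 18.6%. The called gene was QARS, with deposited ratios of 0.31 and 0.35 on the arrays with FL in channel 1 and of -0.15 and -0.12 on those with FL in channel 2. The orientations did not overlap at this age, and the turned value was -0.23 ± 0.06 (n = 4 arrays, limma adjusted p = 0.0478). Its 2 probes had common profiles of opposite sign. The call was lost in 25 of 34 alternative settings, with an adjusted p of up to 0.784, and after centring of each array on its median the value was -0.16 (adjusted p = 0.275). Without 7 wk replicate 1, the array with the shifted median, it was -0.21 (adjusted p = 0.232). EIF6, which keeps the ribosomal subunits apart, had -0.28 ± 0.08 at 7 wk, and EIF2AK3, the kinase PERK that phosphorylates eIF2 under stress of the endoplasmic reticulum, -0.25 ± 0.07. Neither was called, at adjusted p = 0.0770 and 0.0924 in limma. On the shifted array EIF6 had a deposited ratio of 0.489, against -0.484 to 0.047 on the other arrays of 7 wk. EIF2AK3 had 0.525 there, against -0.380 to -0.093. The median turned value of all features at 7 wk was -0.085. For these 2 genes the 7 wk value was not followed in other settings.

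The next test was for turned values that changed with age. The F test across ages called 0 of 62 (0% of features), with 2 genes at an unadjusted p under 0.05, namely QARS and EIF2AK3, against 3.96% of features. For a linear trend from 1 to 11 wk 0 were called (0% of features), and 1 gene passed the unadjusted threshold, against 1.58%. It was TARS, the threonyl-tRNA synthetase, with a change of 0.19 ± 0.08 over the whole span. The smallest adjusted p of any of the 62 genes in this trend was 1.00.

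Larger mean ratios of translation genes were shared by both dye orientations. In the common profile 28 of the 62 genes were called, 12 with a positive value (19.4% of the genes, against 24.2% of all features) and 16 with a negative value (25.8%, against 13.5%). Their median was -0.01, and that of all features was 0.02. Arrays were not centred in this fit, so these values and shares include 7 wk replicate 1 with its median of 0.33. Shares of all features on centred arrays were not taken, here or for the groups below. The 2 sets of 12 arrays share no array, and across the 62 genes their mean ratios had r = 0.941, against 0.867 across all features. The sign was the same in both for 80.6% of the genes and for 80.5% of the features. These are descriptions across genes, which share the spots of 1 array design and are not independent replicates.

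**Figure D1:**
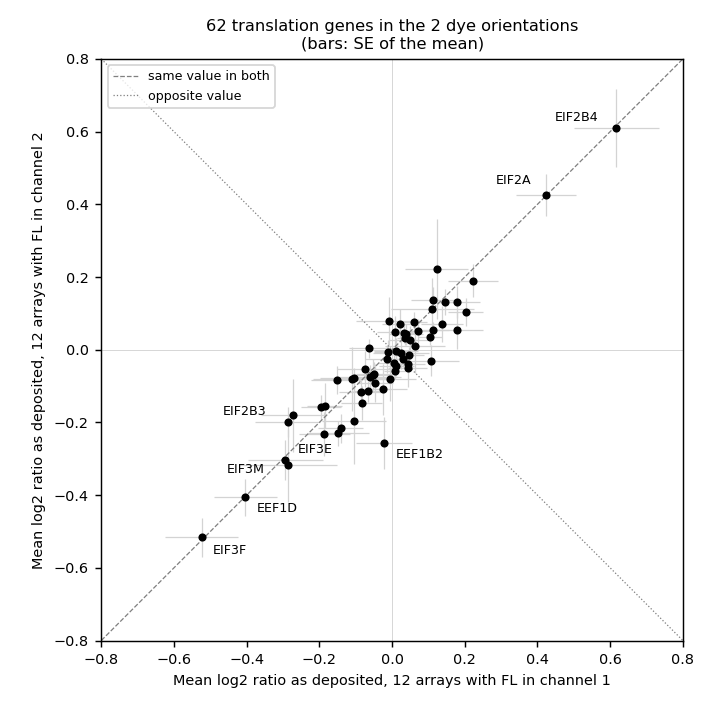
Mean deposited log2 ratio of each of the 62 genes on the 12 arrays with FL in channel 1 (x axis) and on the 12 with FL in channel 2 (y axis), with bars for the SE of the mean. Points follow the dashed line of equal values, from EIF3F at -0.52 in both orientations to EIF2B4 at 0.62 and 0.61, and none lies far out along the dotted line of opposite values.

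Among the subunits of eIF3, the scaffold that links mRNA to the small ribosomal subunit, all 10 had a negative common profile, against 41.4% of all features, with a median of -0.09. Of these, 4 were called, against the 13.5% of features called negative. Both shares of features come from arrays that were not centred, the shifted array of 7 wk included. EIF3F ranged from -1.10 to 0.04 with a median of -0.50 over 24 arrays, and was negative on 23 of them. Its common profile was -0.52 ± 0.06 (adjusted p = 3.71e-06), the most negative of the 62 genes, while its turned mean was 0.00 ± 0.06. EIF3E ranged from -0.81 to 0.50 with a median of -0.30, was negative on 22 arrays, and had a common profile of -0.30 ± 0.06. EIF3M had -0.30 ± 0.09 (adjusted p = 0.0107) and was negative on 19 arrays. EIF3L was smaller at -0.09 ± 0.03, and its 4 probes divided, 2 with a negative and 2 with a positive mean. At the other end EIF3J, a loosely bound subunit, had -0.03 ± 0.03 and was not called. EIF3H, EIF3I and EIF3J, none of them called, each had 1 probe with a negative and 1 with a positive mean, and the latter probe of EIF3J had a mean of 0.07 and was positive on 19 arrays. Across the 24 arrays, each centred on its median, the subunits had a median pairwise r of 0.26 over 45 pairs. The elongation group had 0.17 over 36 pairs, and all 1891 pairs of the 62 genes had 0.03. These are descriptions over arrays that share ages and dyes, with no test and no value over other features.

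Genes of eIF2 and of eIF2B, which reloads eIF2 with GTP, divided in direction. EIF2B4, the delta subunit of eIF2B, was positive on 24 of 24 arrays, from 0.08 to 1.37 with a median of 0.46, and had a common profile of 0.61 ± 0.08 (adjusted p = 1.91e-05). This was the most positive of the 62 genes. EIF2B3, the gamma subunit, was negative on 21 of 23 arrays with a value and had -0.26 ± 0.05. EIF2S1, the alpha subunit of eIF2 on which stress kinases act, was negative on 20 arrays and had -0.18 ± 0.04. EIF2B2 and EIF2B5 were not called, with -0.07 ± 0.03 and 0.00 ± 0.03. Their probes disagreed in sign, with means of 0.08 and -0.23 for EIF2B2 and from -0.12 to 0.10 for EIF2B5. Of the kinases, EIF2AK3 had a value of -0.10 ± 0.03 and was negative on 22 arrays. EIF2AK4, which senses uncharged tRNA, had 0.02 ± 0.03 and was not called, with probe means of 0.10 and -0.07.

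Of 6 factors of scanning and start-codon choice, 2 were called with a positive and 1 with a negative value, against 24.2% and 13.5% of features. EIF2A, an alternative carrier of initiator tRNA, was positive on 23 of 24 arrays, from -0.06 to 0.84 with a median of 0.47, and had 0.43 ± 0.05 (adjusted p = 6.13e-06). EIF1, which guards start-codon selection, had 0.07 ± 0.03. EIF5, which triggers GTP hydrolysis by eIF2 at the start codon, had -0.21 ± 0.05 and was negative on 20 arrays. EIF1B, EIF5B and EIF6 were not called and lay between -0.02 and 0.03.

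The 11 cap-binding, helicase and 4E-binding factors had 3 called genes in each direction and a median of 0.04. Of all features 24.2% were called positive and 13.5% negative. EIF4E, which binds the cap, had -0.19 ± 0.04 and was negative on 20 arrays. EIF4A2, an RNA helicase, had -0.18 ± 0.03 and was negative on 21, although 1 of its 4 probes had a positive mean. EIF4H, a cofactor of the helicase, had -0.23 ± 0.07 and a wide range, from -0.93 to 0.70. Positive values were called for EIF4G2, a scaffold of cap-independent initiation, with 0.14 ± 0.03 and 22 positive arrays, for EIF4ENIF1 with 0.15 ± 0.03, and for EIF4EBP2, a repressor that holds eIF4E, with 0.10 ± 0.04. The 4 probes of EIF4G2 had means from -0.09 to 0.55, so its value rested largely on 1 probe. The same held for EIF4EBP2, with 1 probe at 0.35 and the others at -0.03 and -0.01, and for EIF4ENIF1, with probes at 0.30 and 0.01. EIF4E3, a variant cap-binding protein, had the most positive value of the group at 0.17 ± 0.07 and was not called (adjusted p = 0.0760).

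In the group of 9 elongation factors and their partners 1 gene was called with a positive value, against 24.2% of features. Negative calls were made for 3, against 13.5%. EEF1D, the delta subunit of the eEF1A exchange factor, was negative on 23 arrays, from -0.89 to 0.03 with a median of -0.37, and had -0.40 ± 0.05 (adjusted p = 1.67e-05). EEF1B2 of the same complex had -0.14 ± 0.05, and EEF2, which moves the ribosome along the mRNA, -0.12 ± 0.04. Probes of EEF1B2 had means of -0.25 and -0.03, so its value rested largely on 1 of them. The 3 probes of EEF2 had means of -0.40, -0.03 and 0.09, the last positive on 21 arrays, so its value too rested largely on 1 probe. EEF1A2 had 0.12 ± 0.03, while EEF1A1 had -0.15 ± 0.08 and was not called. Both encode eEF1A, the carrier of charged tRNAs, and as near-identical paralogs they may share signal on cDNA spots, so the values of each are uncertain. Most of the 11 probes of EEF1A2 were spots of the same cDNA.

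Among the 14 cytosolic synthetases most values were close to 0, with a median of 0.02, and 3 were called positive and 1 negative. For both groups of synthetases the shares of all features called were 24.2% positive and 13.5% negative. LARS, which charges leucine, had 0.15 ± 0.04, AARS1, for alanine, 0.12 ± 0.05, and SARS1, for serine, 0.07 ± 0.02 with 21 positive arrays. DARS, for aspartate, had -0.12 ± 0.04 and was the 1 gene of the group with a called negative value. Probes of AARS1, LARS and SARS1 disagreed in sign, and those of LARS had means from -0.03 to 0.48. Those of AARS1 had means from -0.11 to 0.35, and its limma adjusted p was 0.0489, with 0.81 on the shifted array of 7 wk. For SARS1, 2 spots of the same cDNA had means of 0.28 and -0.01. Of 5 mitochondrial synthetases, NARS2 (0.21 ± 0.05) and RARS2 (0.08 ± 0.03) had called positive values, and CARS2 had -0.17 ± 0.04 and was negative on 20 arrays.

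**Figure D2:**
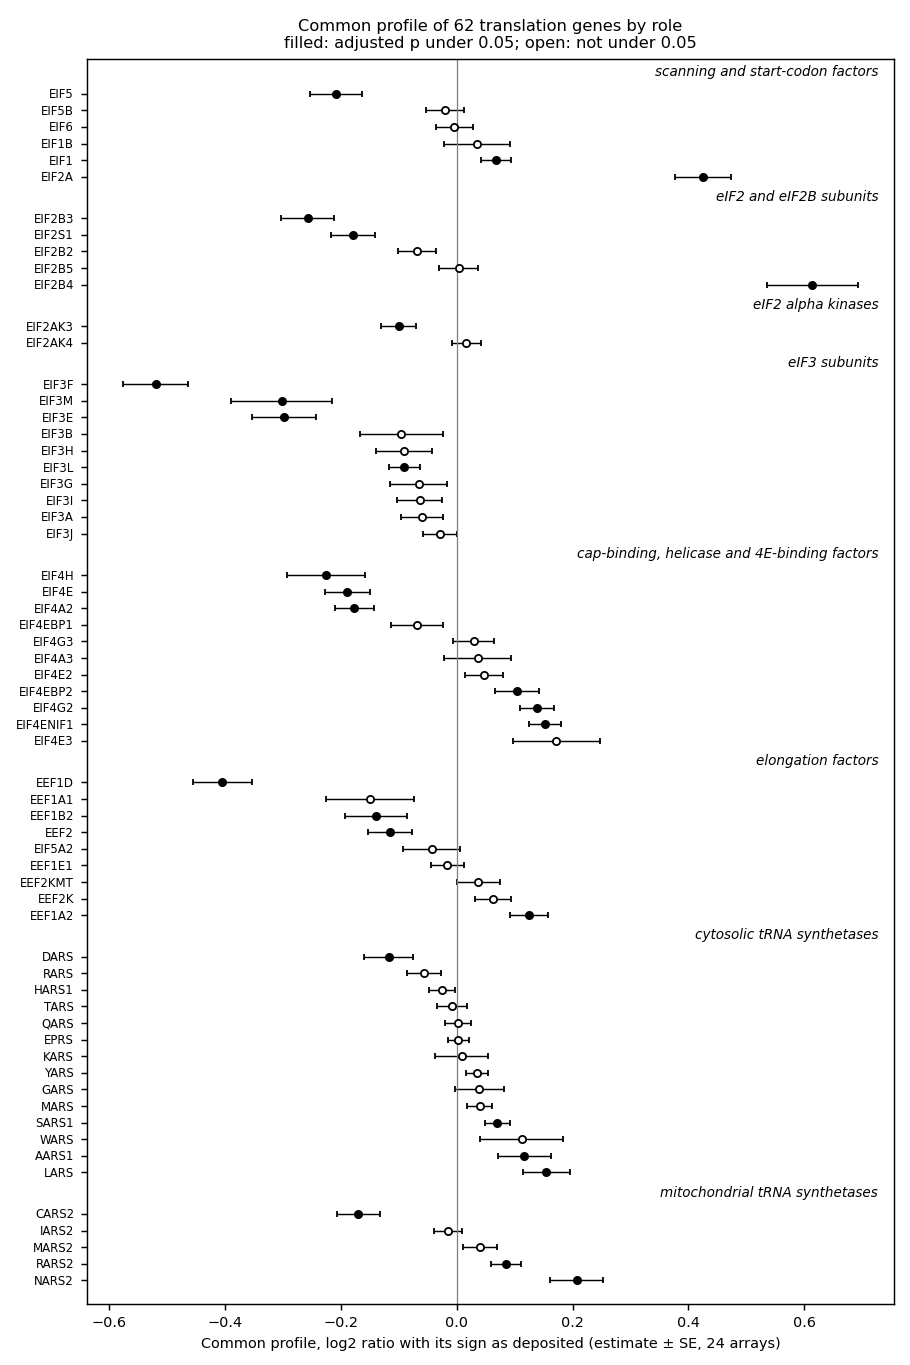
Common profile of each gene (x axis, log2 ratio with its sign as deposited, estimate ± SE over 24 arrays), with genes on the y axis in groups by role. Filled points mark the 28 called genes, of which 9 had probes of both signs. All 10 eIF3 subunits lie left of 0, and the synthetases lie mostly within 0.2 of it.

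Of the called genes, 14 had the same sign on at least 20 arrays. Their calls and signs and those of EIF3M held in all 34 alternative settings (33 for EIF2B3) on probes averaged per gene. The 14 were chosen by call and sign on these same arrays, so a change of sign was unlikely where 1 array was left out. Calls of single probes were not followed for these genes, and probes of EIF4A2, EIF4G2 and SARS1 disagreed in sign. Across the settings EIF3F ran from -0.56 to -0.50, EIF2B4 from 0.55 to 0.65, and EIF3M from -0.35 to -0.24. Genes of other cell functions carried a common profile as well. Of all features 24.2% were called positive and 13.5% negative, and the lists below were not tested against these shares. Of 13 hepatocyte genes measured, 6 had a called negative and 1 a called positive value, with a median of -0.24 and a range from -0.73 for APOH to 0.24 for RBP4. The 9 genes of fibroblasts and matrix had 5 positive and 1 negative calls and a median of 0.20, with 0.67 for MMP2. The medians were -0.11 for 7 macrophage genes with 2 calls in each direction, 0.09 for 5 endothelial genes with 2 positive, 0.13 for 3 erythrocyte genes with 2 positive and 0.14 for 4 muscle genes with 3 positive. CD3E, the 1 lymphocyte gene measured, had 0.04 and was not called. The part of these cell types in the values of translation genes was not tested.

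Other genes of translation and its control, 26 in all, had 5 positive and 6 negative calls in the common profile, against 24.2% and 13.5% of all features. On the turned mean over ages 0 were called (0% of features), and 2 had an unadjusted p under 0.05 in limma, against 3.34%. PABPC1, the poly(A)-binding protein, had -0.34 ± 0.06 and was negative on 21 arrays, and PDCD4, an inhibitor of the helicase eIF4A, had -0.37 ± 0.07. Values of DDX3X, a helicase of structured leaders, and of DENR, which helps reinitiation, were -0.26 ± 0.06 and -0.10 ± 0.03. Of 13 genes listed for the response to amino acid shortage and stress, 5 were measured, and 2 of the 5 were called, both negative. They were ASNS, the asparagine synthetase, at -0.13 ± 0.04, and VLDLR, a lipoprotein receptor, at -0.14 ± 0.05. ATF4, the transcription factor of that response, had -0.03 ± 0.05 and was not called. CHAC1 (0.05 ± 0.02) and CEBPB (-0.01 ± 0.04) were not called either. On the positive side stood ETF1, the release factor (0.20 ± 0.04), FARSB, a subunit of the phenylalanine synthetase (0.22 ± 0.06), PARS2, the mitochondrial proline synthetase (0.11 ± 0.03), and TSC1 and MLST8 of the mTORC1 pathway (0.32 ± 0.04 and 0.23 ± 0.03).

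Age was examined next on the ratios as deposited, which is the reading for columns already turned. EIF3M, measured by 1 probe, stood out by age. Its 4 ratios at 1 wk were 0.15, -0.17, 0.22 and 0.27 in replicate order, those at 3 wk -0.14, -0.11, -0.13 and -0.19, and those at 5 wk -0.04, -0.26, 0.15 and -0.26. At 7 wk they were 0.18, -0.20, -0.48 and -0.19. The arrays of 9 wk gave -1.01, -1.09, -1.10 and -0.81, and those of 11 wk gave -0.56, -0.30, -0.68 and -0.52. All 4 arrays of 9 wk lay below all 20 others, in both dye orientations, and those of 11 wk overlapped with 7 wk. From high to low the age means were 0.12 (1 wk), -0.10 (5 wk), -0.14 (3 wk), -0.17 (7 wk), -0.52 (11 wk) and -1.0 (9 wk), each ± 0.09 (SE, n = 4 arrays), and those from 3 to 7 wk did not differ beyond their SE. The ages differed at a limma adjusted p of 3.72e-04 in the F test. At 9 wk the turned value was 0.05 ± 0.21, with an SE that includes these differences between ages, as that fit had 1 common term.

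The F test between ages called 3 further translation genes, and 4 of 62 in all compares with 4.89% of features. EIF5A2, an isoform of the factor that relieves stalled ribosomes, had ratios from -0.36 to -0.14 at 9 wk and from -0.37 to -0.18 at 11 wk, with age means of -0.29 and -0.27, and age means from -0.06 to 0.17 earlier (adjusted p = 0.0257). EEF1D was negative on every array of 9 wk, from -0.89 to -0.42, with means from -0.71 at 9 wk to -0.21 at 1 wk (adjusted p = 0.0488). EIF4E2, a cap-binding protein that represses translation, had 0.27, 0.42, 0.40 and 0.13 at 7 wk, and age means from -0.07 to 0.04 at the other ages (adjusted p = 0.0470). EIF3M held its call in all 29 alternative settings and EIF5A2 in 26, whereas EEF1D lost it in 22 and EIF4E2 in 25. The spread of all ratios was also wide on the arrays of 9 wk, as given above. With every array centred and scaled to a common spread, an alternative added after the data were seen, EIF3M had -0.91 at 9 wk and was still called between ages.

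**Figure D3:**
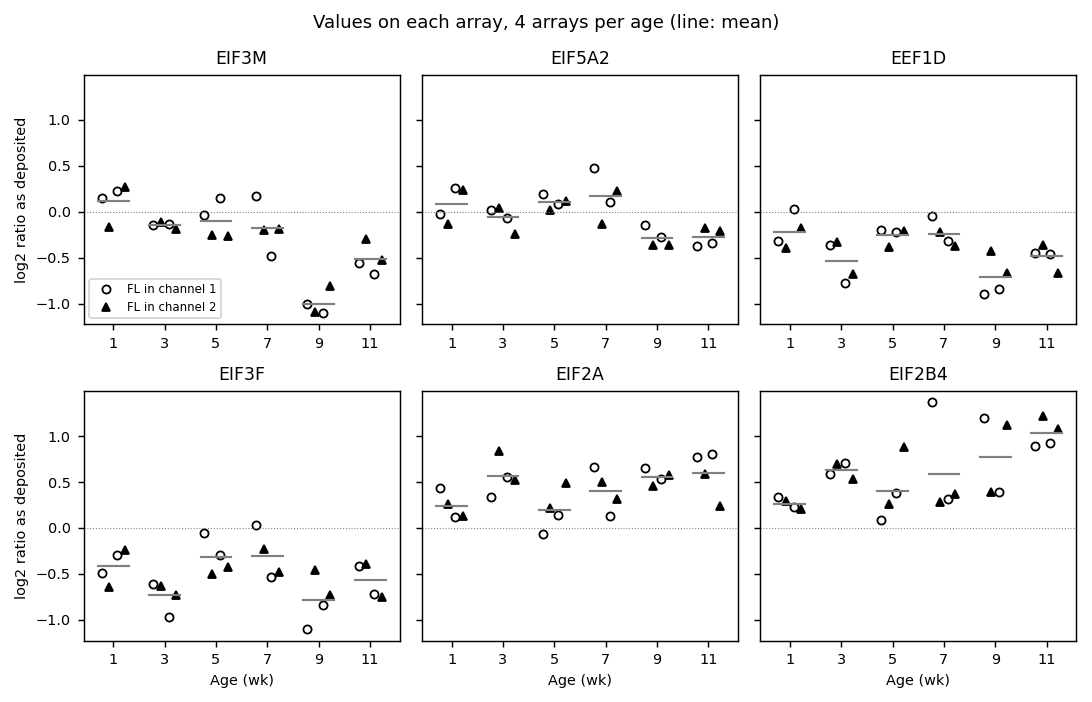
Deposited log2 ratio of 6 genes on each array (y axis) by age in wk (x axis), with open circles for FL in channel 1, filled triangles for FL in channel 2, and a line at the mean of 4 arrays. EIF3M falls to about -1.0 at 9 wk with both symbols, while EIF2B4 is above 0 on all 24 arrays.

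The number of called genes differed between ages. At 1 wk 0 of 62 genes were called in either direction, against 0.0337% of features with a positive and 0.0875% with a negative value. The same was found at 5 wk, against 0.0471% and 0.0269%. At 3 wk 2 genes were positive (3.89% of features) and 2 negative (2.48%). These were EIF2B4 (0.63 ± 0.15), EIF2A (0.56 ± 0.10), EIF3F (-0.73 ± 0.11) and EEF1D (-0.53 ± 0.09), each with the same sign on 4 of 4 arrays. At 7 wk 9 were positive, against 21.8%, and 2 negative, against 1.75%, with the shifted array among the 4. EEF1A2 (0.36 ± 0.06), EIF1 (0.21 ± 0.05) and RARS2 (0.21 ± 0.06) were among those with the same sign on all 4. The order of the ages by their counts depended on the scaling. Once each array was centred and scaled, the ages of 1, 3, 5 and 7 wk had 2, 15, 7 and 1 called genes in place of 0, 4, 0 and 11. Without 7 wk replicate 1 there were 16 at 3 wk, without 1 wk replicate 4 there were 7, and without 3 wk replicate 3 there was 1. Shares of all features were not taken in these settings, so such counts cannot be set against them.

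At 9 wk 7 genes were positive, against 8.21%, and 13 negative, against 7.81%. Besides EIF3M, the genes negative on 4 of 4 arrays included EIF3F (-0.78 ± 0.11), EEF1D (-0.71 ± 0.09), EIF2S1 (-0.40 ± 0.06), EIF2B3 (-0.38 ± 0.10) and EIF4E (-0.34 ± 0.11). EIF4E3 was positive on all 4, at 0.40, 0.77, 0.33 and 1.34, with a mean of 0.71 ± 0.15. EIF2B4 had 0.77 ± 0.15, EIF2A 0.55 ± 0.10, EIF4G2 0.30 ± 0.06 and EIF4EBP2 0.29 ± 0.08. The SE of a gene value does not hold the spread between its probes. At 9 wk the probe means of EIF4G2 ran from -0.38 to 1.06. Those of EIF4EBP2 were 0.75, 0.02 and 0.10, with 0.75 and 0.02 from spots of the same cDNA. At 11 wk 3 were positive, against 5.25%, and 8 negative, against 5.14%. EIF2B4 reached 1.03 ± 0.15 and AARS1 0.37 ± 0.09, and CARS2 had -0.34 ± 0.08. The 3 probes of AARS1 had means of 0.95, 0.26 and -0.10 at 11 wk, so its value rested largely on 1 of them. A linear trend over age was called positive for 1 gene (2.88% of features), EIF2B4 with 0.63 ± 0.18 from 1 to 11 wk (limma adjusted p = 0.0472). It was negative for 3 (2.54%), namely EIF3M (-0.83 ± 0.11), EIF5A2 (-0.34 ± 0.09) and EIF2S1 (-0.30 ± 0.08). The limma F test between ages did not call EIF2B4 or EIF2S1 (adjusted p = 0.187 and 0.0559). Trends of single genes were not followed in other settings, scaling included. At 9 wk the 13 hepatocyte genes had a median of -0.42, and the 62 translation genes had -0.05. The hepatocyte genes ran from -1.20 for HPD to 0.63 for RBP4. Medians at that age were -0.24 for the macrophage genes and 0.30 for those of fibroblasts and matrix. They were 0.06 for the endothelial, 0.11 for the erythrocyte and 0.12 for the muscle genes, and CD3E had 0.09. The 20 calls of 9 wk became 12 without its replicate 2 or 3, and the 11 of 11 wk became 17 without 7 wk replicate 1, with no shares of all features taken for these. The part of the hepatocyte genes and of the other cell types in the values of translation genes at 9 wk was not tested.

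**Figure D4:**
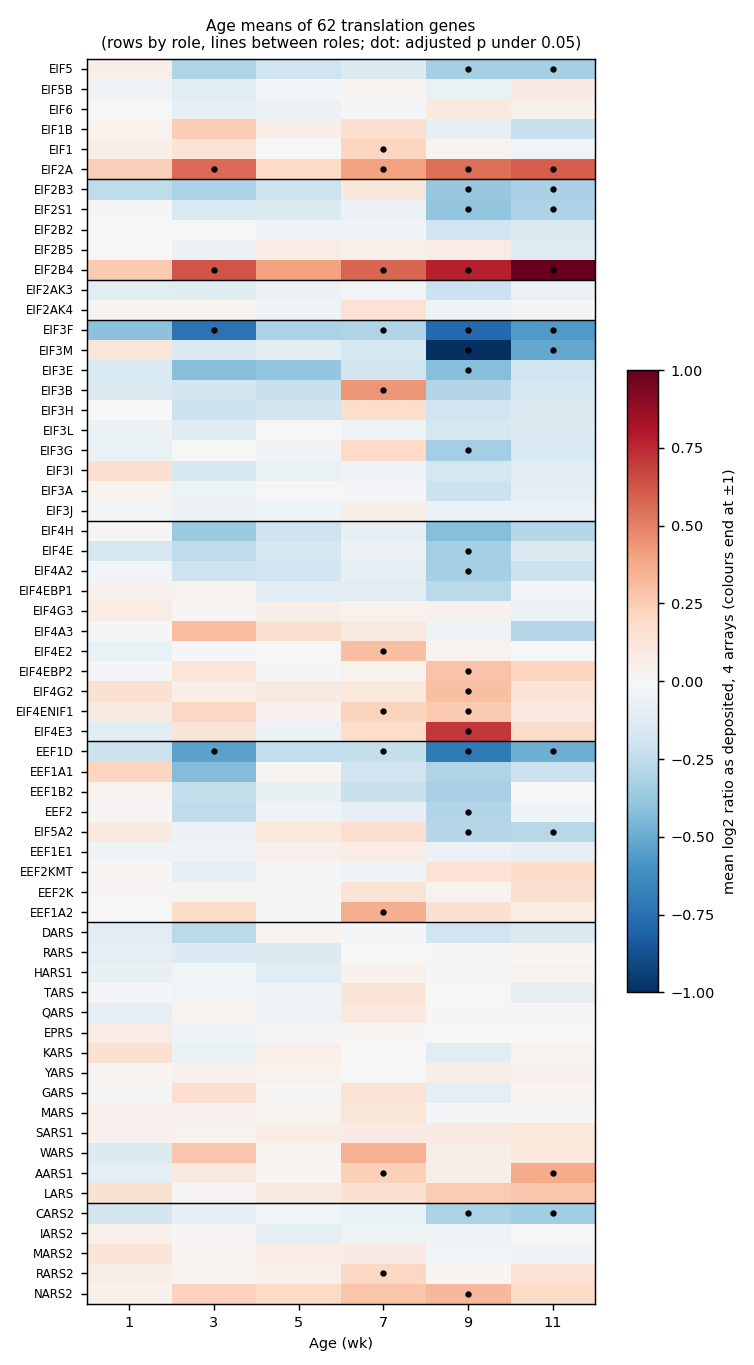
Mean deposited log2 ratio of 4 arrays for each of the 62 genes (rows, in the order of the plot by role) at each age in wk (columns), with colour from blue (negative) to red (positive) and a dot where the gene was called. EIF3M is darkest at 9 wk (-1.0) and EIF2B4 at 11 wk (1.03), and the columns of 1 and 5 wk hold 0 dots.

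Genes were also ranked by their likeness to EIF3M over the 24 arrays, each array centred on its median. EIF5A2 had r = 0.73, EIF2S1 0.71, EEF1D 0.68, EIF4A2 0.67, EIF5 0.58, EIF3F 0.56 and EIF3A, the largest subunit of eIF3, 0.55. At the opposite end EIF4E3 had r = -0.66, EIF4EBP2 -0.64 and EIF4ENIF1 -0.55. These correlations describe arrays that share ages and dye orientation, and no test was made of them.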

How the data were processed

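Log2 ratios of the channels were used as deposited by the authors in 1 value table of 24 arrays, and 0 columns were left out. The log base, ratio direction, scanner, background correction and normalization are not given in the sources used here. Symbols came from the platform annotation (10601 of 19200 spots named), and 59 of 62 genes had a RefSeq entry by Entrez ID. Probes were averaged per gene, and a feature was dropped if fewer than 3 of the 4 arrays of any age had a value. limma (version 3.58.1, R 4.3.3) was fitted to all 14855 features, with two-sided tests. The fit had 6 signed age coefficients and 1 common term, or 6 unsigned age coefficients and 1 signed term. It was also run on simulated data with independent noise. These held no shifted, reversed or look-alike array, so that run does not bear on such arrays. The number of arrays limits the precision. No sequences or coordinates were used.

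Genes and lists, EIF3M included, were chosen with earlier results of these data known. Named were EIF3M, called genes whose sign agreed on 20 or more of 24 arrays (4 of 4 within an age), the 3 genes of smallest p where none was called, and the extremes of each role; further genes were named after their values were seen. Alternatives covered scaling, filters, dye terms, array weights, single probes, a replicate block and omitted arrays. Single probes entered the counts of called genes only, and not the values followed for named genes.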

Additional observations from a re-analysis of the deposited data

Results flagged for a closer look

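Among 113 groups of 4 arrays at 1 age, 9 held an array whose gap to the nearest other exceeded Dixon's 95% critical value, and chance flags about 1 in 20 groups. The median over the 62 translation genes was 0.324 on 7 wk replicate 1, against -0.08 to -0.03 on the other arrays of that age. EIF2B4 (1.37) and EIF5 (0.13) were also far from the others on that array. Its median over all features was 0.33 and values were not centred for these flags, so the flags on it include that shift. Single arrays stood apart for CARS2 on 11 wk replicate 2 (-0.73), EEF1D on 5 wk replicate 2 (-0.38), EIF2AK3 on 1 wk replicate 2 (-0.23) and EIF2B3 on 9 wk replicate 2 (-0.17). On 11 wk replicate 4 they were SARS1 (0.0818) and EIF4E2 (-0.0585).

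On the ratios as deposited, 4 genes differed between ages by the limma F test, with adjusted p of 3.72e-04 for EIF3M, 0.0257 for EIF5A2, 0.0470 for EIF4E2 and 0.0488 for EEF1D.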

How the results depend on the processing

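All counts here are of called genes among the 62. The shares of all features called were not taken in the alternative settings, so these counts cannot be set against them. The common profile gave 23 to 29 calls with 1 array left out, against 28. The signs of the 15 genes followed in it held in 34 settings (33 for EIF2B3), all on probes averaged per gene. Of these, 14 had been chosen by call and sign on the same arrays. Other named genes were not followed. Read as columns turned before deposit, the mean over ages had 29 calls, 3 wk 4, 7 wk 11, 9 wk 20, 11 wk 11, the interaction 4 and the trend 4. The single turned call at 7 wk fell to 0 after centring, after centring and scaling, with array weights, with each probe on its own, with each age fitted alone, without the look-alike pair, and without these and 1 wk replicate 4. With 1 array left out it ranged from 0 to 7, the latter without 7 wk replicate 3.

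As deposited, centring gave 11 calls at 3 wk and 17 at 11 wk. Leaving out the look-alike pair gave 15 at 3 wk and 9 in the F test. Further settings were chosen after seeing the data. Omission of the look-alike pair and of 1 wk replicate 4 gave 17 at 3 wk. Scaling gave 2, 15, 7 and 1 calls for 1, 3, 5 and 7 wk, and turning 1 wk replicate 4 gave 2 in the F test. Leaving out 1 array gave 1 to 16 at 3 wk (1 without 3 wk replicate 3, 16 without 7 wk replicate 1, 7 without 1 wk replicate 4), 12 to 28 at 9 wk (12 without 9 wk replicate 2 or 3), 8 to 17 at 11 wk (17 without 7 wk replicate 1) and 1 to 10 in the F test (10 without 7 wk replicate 1). The causes were not tested.

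Arrays with the same number shared the number and, by design, the dye orientation. Each value was taken as its deviation from the mean of its age. Over 60 such pairs the median r of these deviations was -0.04, 10 were over 0.1, and 7 of 24 arrays correlated best with their own number. With the replicate block as a random effect (correlation -0.0572) the common profile had 29 calls, 7 wk had 1 and the mean over ages 0.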
